A study of Homo sapiens with 18 samples.

Results

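Amino acid transporters were followed through SYK knockdown in 3 lung cancer cell lines. The group held 10 genes, found by symbol among the 58302 genes of the expression tables: SLC7A5, SLC3A2, SLC7A11, SLC1A5, SLC38A2, SLC38A1, SLC1A4, SLC7A1, SLC7A6 and SLC43A1. They were chosen by the FPKM of SLC7A5, after it had been seen to be lower in shSYK cells of all 3 cell lines. The difference between shSYK and nc cells was therefore part of the choice, and it is given below as a description with no p-value. Where a member is said to be past a threshold in a line, that call comes from the fit over all genes and is part of the description, not evidence about the group. Differences in effect between cell lines, which the choice did not use, were tested for the 9 members other than SLC7A5. For SLC43A1 and SLC1A4, hardly expressed outside EBC-1, such a difference mostly repeats the fall within EBC-1.

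The lines EBC-1, PC-9 and HCC827 gave 3 RNA libraries in each of 6 groups, 18 libraries in all. EBC-1 carries a MET amplification, and PC-9 and HCC827 carry an EGFR exon 19 deletion. In each line, shSYK cells stably carried the lentiviral shRNA TRCN0000003166 against the tyrosine kinase SYK. The nc cells were the negative control, whose construct is not given in the sources used here. A single shRNA was used, and nothing in the labels says that the 3 libraries of a group came from separate cultures, so errors measure the spread between these libraries, which may be technical.

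Cells take up amino acids through solute carriers (SLC). Large neutral and branched-chain amino acids enter through SLC7A5 (LAT1), an exchanger that works only when joined to the single-pass glycoprotein SLC3A2 (CD98 heavy chain), which carries it to the plasma membrane. SLC3A2 is not a transporter by itself, and it serves in the same way the light chains SLC7A6, which exchanges cationic for neutral amino acids, and SLC7A11 (xCT), which imports cystine for glutathione in exchange for glutamate. SLC1A5 and SLC1A4 exchange small neutral amino acids such as serine, and SLC1A5 also exchanges glutamine. SLC38A1 and SLC38A2 take up glutamine and alanine with sodium. SLC7A1 carries arginine and lysine, and SLC43A1 carries leucine and related amino acids without a heavy chain. Tumour cells often hold much SLC7A5 and SLC3A2, whose leucine import feeds the growth kinase complex mTORC1, and the transcription factors ATF4, MYC and NRF2 are known to act on genes of this group.

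Expression is given in FPKM, a scale that divides fragments by gene length and library size, and differences are on the scale of log2(FPKM + 1), shSYK minus nc. Between 7920099 and 15729103 reads per library lay on genes. In EBC-1, SYK went from 14.2 ± 1.07 FPKM with the control to 7.43 ± 0.189 FPKM with shSYK (SD, n = 3), in PC-9 from 6.51 ± 0.698 to 2.09 ± 0.389, and in HCC827 from 9.08 ± 0.649 to 2.99 ± 0.472, with no overlap of the groups in any line. With a limma fit at an adjusted p under 0.05, 44.7% of the genes tested were called in EBC-1 (21.6% lower and 23.1% higher), 2.09% in PC-9 (1.41% lower and 0.678% higher) and 38.0% in HCC827 (20.7% lower and 17.2% higher). Of the EBC-1 calls 51.7% were higher, against 45.4% for HCC827 and 32.4% for PC-9. After rescaling every library to an equal sum (TPM) the first 2 of these shares were 67.9% and 56.5%, with limma-voom on recovered reads 63.0% and 58.2%, and in PC-9 the share was 43.7% with length and GC trends removed. With TPM the median difference of all genes in EBC-1 moved from 0.0090 to 0.13. The epithelial markers EPCAM, CDH1, KRT7, KRT8, KRT18 and KRT19 were expressed in all 3 lines, and 4 of the 6 fell in EBC-1 and 2 in HCC827. With length and GC trends removed, 2 were lower in EBC-1, where KRT18 and KRT19 were no longer past the threshold, 1 was lower in PC-9, and 2 were lower and 2 higher in HCC827. Of 8 markers of blood, endothelial and fibroblast cells, 5 had at most 3 reads in every library of EBC-1 and of HCC827, and 2 in PC-9.

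A property of the libraries touched many members. In EBC-1 and HCC827, expression rose with the GC content of the gene in the nc libraries and fell with it in the shSYK libraries, relative to the mean of the line. The log2 slope per 10 points of GC was 0.16, 0.015 and 0.18 in EBC-1 nc and -0.077, -0.082 and -0.20 in EBC-1 shSYK libraries. In HCC827 it was 0.070, 0.045 and 0.095 in nc and -0.034, -0.092 and -0.084 in shSYK libraries. In PC-9 the nc libraries themselves ran from 0.25 in nc 1 to -0.14 in nc 2. The members span a wide range of GC, from 35.4% in SLC7A11, 37.4% in SLC38A2 and 41.3% in SLC38A1, through 46.5% in SLC1A4 and 47.0% in SLC7A6, to 52.7% in SLC7A1, 53.8% in SLC3A2, 58.0% in SLC43A1, 61.2% in SLC7A5 and 61.3% in SLC1A5, against a median of 49.1% over the genes tested in EBC-1. Removal of the trends on length and GC within each library, an alternative chosen after seeing the data, is therefore given beside the members, and beside other genes where it ended a call or moved a difference by over 1.5 times.

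**Figure D1:**
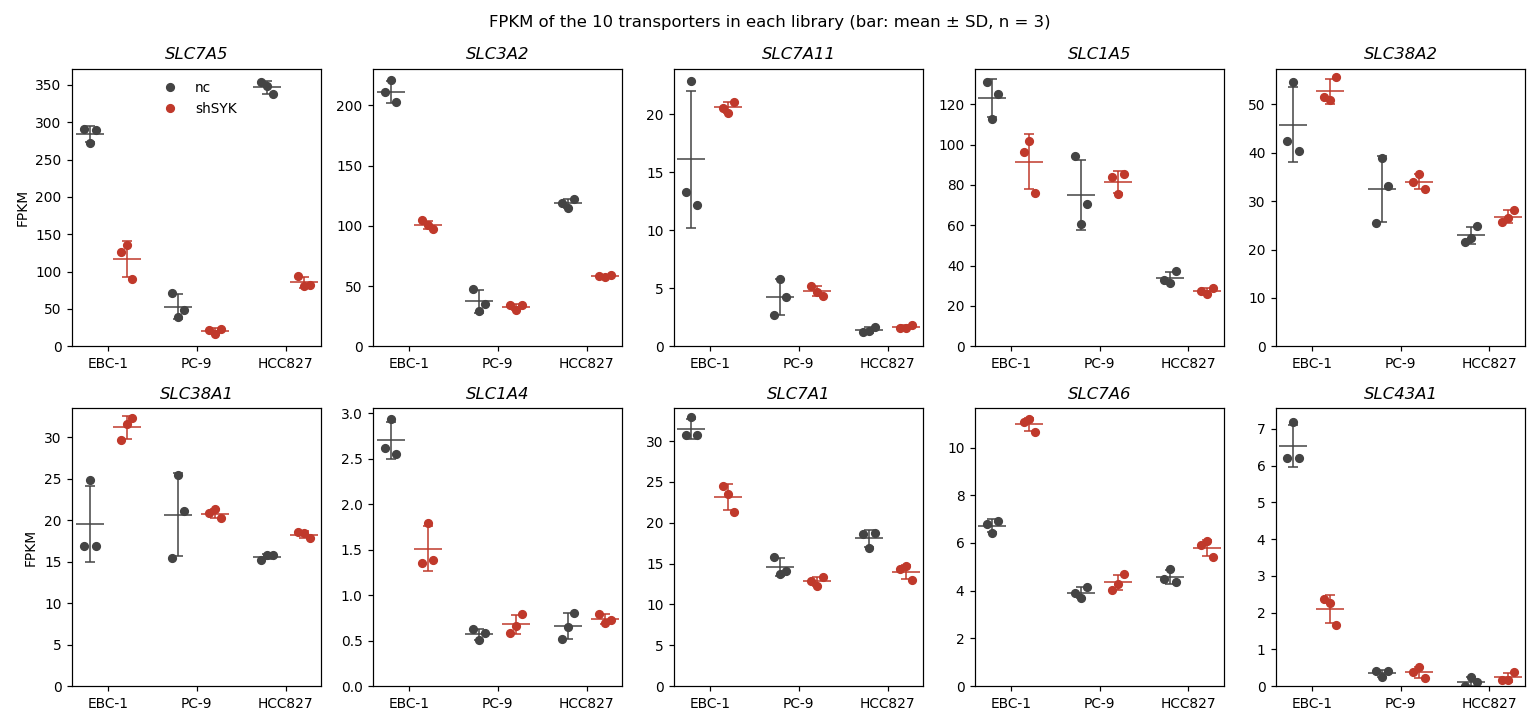
FPKM (y axis, from 0, a scale of its own in each panel) of each transporter in the 18 libraries. Points are libraries, grey for nc and red for shSYK, and bars give the mean ± SD of 3 libraries. SLC7A5 was lower in every shSYK library of each line, and SLC3A2 in every shSYK library of EBC-1 and HCC827.

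SLC7A5 (ENSG00000103257, hg38 chromosome 16, 87830023 to 87869488, minus strand) was among the highest of the 10 genes in every line. In EBC-1 it was at 291, 273 and 290.1 FPKM in the nc libraries and at 126, 136 and 90.0 FPKM in the shSYK libraries. The lowest nc value lay well above the highest shSYK value, and the mean fell to 41.2% of nc, a log2 difference of -1.29 (standard error 0.14). In PC-9, the line with the least SLC7A5, the nc libraries held 71.2, 38.8 and 49.1 FPKM and the shSYK libraries 22.1, 16.7 and 22.9 FPKM. The groups did not overlap although nc 1 stood well above the other nc libraries, and the log2 difference was -1.29 (standard error 0.23). In HCC827 the nc libraries held 353, 349 and 337 FPKM and the shSYK libraries 94.1, 80.1 and 82.0 FPKM. The mean was 24.6% of nc, a 4.06-fold lower level and the largest fall of SLC7A5 among the lines, with a log2 difference of -2.01 (standard error 0.071). With the length and GC trends removed, the 3 differences were -1.06, -1.20 and -1.81. Of the 10030 genes tested in every line, 36 (0.359%) were lower at the threshold in all 3, SLC7A5 among them, which is what the choice of the group rests on. In PC-9 its call was lost when genes under 1 FPKM were kept in the fit, and when nc replicate 3 or any 1 of the shSYK replicates 1, 2 and 3 was left out, while the difference stayed between -1.49 and -1.06 with any 1 library left out. The pseudogene SLC7A5P1, which shares sequence with SLC7A5, was at 2.28 to 10.8 FPKM over the 18 libraries and SLC7A5P2 at 0, and how the counting split reads between the copies is not given in the sources used here. In bulk RNA, fewer cells expressing a gene and less RNA per cell cannot be told apart.

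SLC3A2 (ENSG00000168003, chromosome 11, 62856102 to 62888875, plus strand), the heavy chain, was lower in EBC-1 and HCC827. Its nc libraries held 211, 221 and 203 FPKM in EBC-1 and its shSYK libraries 105, 101 and 97.7 FPKM, a log2 difference of -1.06 (standard error 0.063). In HCC827 it went from 119, 115 and 122 FPKM to 58.4, 57.2 and 59.4 FPKM, a log2 difference of -1.01 (standard error 0.050). The groups were far apart in both lines relative to the spread of their libraries. In PC-9 the nc libraries held 47.4, 29.3 and 34.9 FPKM and the shSYK libraries 34.2, 30.0 and 34.1 FPKM. These groups overlapped, and the log2 difference of -0.15 (standard error 0.18) was not past the threshold. Leaving out nc replicate 1 made it 0.031. Removal of the length and GC trends left differences of -0.93 (EBC-1), -0.87 (HCC827) and -0.11 (PC-9).

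The balance between SLC7A5 and its heavy chain was read from the ratio of their FPKM within each library. In EBC-1 it was 1.38, 1.23 and 1.43 in nc and 1.20, 1.35 and 0.921 in shSYK libraries, and the groups overlapped. In PC-9 it was 1.50, 1.32 and 1.41 in nc and 0.647, 0.557 and 0.672 in shSYK libraries. In HCC827 it was 2.97, 3.04 and 2.76 in nc and 1.61, 1.40 and 1.38 in shSYK libraries. The ratio was thus lower in every shSYK library of PC-9 and HCC827 than in any nc library of that line. SLC7A6 shifted the opposite way. Its ratio to SLC3A2 went from 0.0319 ± 0.00258 to 0.109 ± 0.00276 with shSYK in EBC-1 (SD, n = 3), from 0.0388 ± 0.00365 to 0.0994 ± 0.00771 in HCC827, and from 0.109 ± 0.0237 to 0.133 ± 0.0131 in PC-9, where the groups overlapped. These are ratios of transcripts, and amounts of protein were not measured here.

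**Figure D2:**
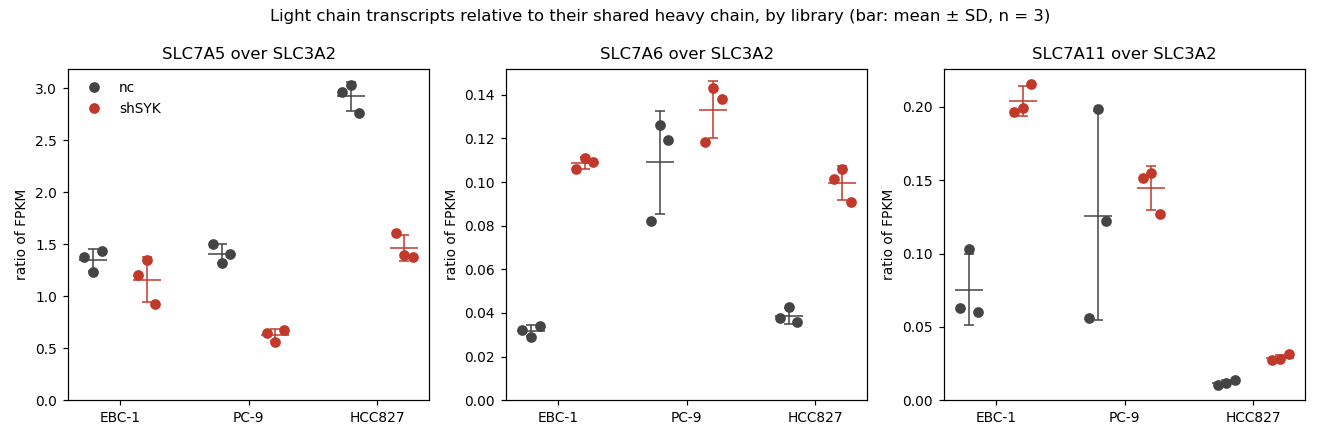
Ratio of FPKM (y axis, from 0) of SLC7A5, SLC7A6 and SLC7A11 to that of SLC3A2 in each library, grey for nc and red for shSYK, with the mean ± SD of 3 libraries. The SLC7A5 ratio was lower in every shSYK library of PC-9 and HCC827, and the SLC7A6 ratio was higher in every shSYK library of EBC-1 and HCC827.

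SLC7A6 (ENSG00000103064, chromosome 16, 68264516 to 68301823, plus strand) was higher in shSYK cells of EBC-1 and HCC827. It went from 6.82, 6.43 and 6.93 FPKM to 11.1, 11.2 and 10.7 FPKM in EBC-1, a log2 difference of 0.63 (standard error 0.064). In HCC827 it went from 4.50, 4.91 and 4.35 FPKM to 5.91, 6.07 and 5.41 FPKM, a log2 difference of 0.28 (standard error 0.070), whose call was lost without nc replicate 1, nc replicate 3 or shSYK replicate 2. In PC-9 the values of 3.89, 3.70 and 4.16 FPKM and of 4.04, 4.30 and 4.70 FPKM overlapped, with a difference of 0.12. The trends on GC moved these little, to 0.56, 0.26 and 0.11. SLC7A6 overlaps SLC7A6OS on the opposite strand, and the use of strand in counting is not given in the sources used here, so reads of the pair cannot be told apart. SLC7A6OS was at 3.74 ± 0.0782 FPKM in nc and 4.08 ± 0.351 in shSYK cells of EBC-1, and at 2.66 ± 0.160 and 2.89 ± 0.0839 in HCC827.

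The cystine transporter SLC7A11 (ENSG00000151012, chromosome 4, 138164097 to 138242349, minus strand) passed the threshold in no line. In EBC-1 the nc libraries held 13.3, 22.8 and 12.2 FPKM and the shSYK libraries 20.6, 20.1 and 21.1 FPKM. The nc 2 library stood above the shSYK libraries and the other nc libraries below them, and the log2 difference of 0.39 became 0.65, past the threshold, without nc replicate 2. With the length and GC trends removed it was -0.088. In PC-9 it was at 2.67, 5.82 and 4.26 FPKM in nc and 5.19, 4.65 and 4.33 FPKM in shSYK libraries, and in HCC827 at 1.20, 1.33 and 1.66 FPKM and 1.59, 1.60 and 1.86 FPKM. Both pairs of groups overlapped, and the differences of 0.17 and 0.16 were 0.051 and -0.039 with the trends removed.

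The sequence upstream of 4 members is shown. Of these, SLC7A5, SLC3A2 and SLC7A1 were called lower and SLC7A6 higher in EBC-1 and HCC827, also with the trends removed. SLC1A5 was called lower and SLC38A1 higher in both lines too. Once the trends were removed, SLC1A5 was called in neither of these lines and SLC38A1 only in EBC-1. Sequences come from RefSeq (GRCh38.p14), which held a promoter for 9 of the 10 members, and the window nearest to the start of the gene in the tables was taken, without bases inside that gene. They run 5′ to 3′ on the strand of the gene. Capitals mark matches on either strand to CACGTG (the E-box of MYC), TGACNNNGC (the antioxidant response element core of NRF2) and GGGCGG (the GC box of Sp1). TGATGNAA, the amino acid response element core of ATF4, had no match in these windows. Matches of GGGCGG may overlap each other.
SLC7A5, chr16:87869508-87869757, minus strand: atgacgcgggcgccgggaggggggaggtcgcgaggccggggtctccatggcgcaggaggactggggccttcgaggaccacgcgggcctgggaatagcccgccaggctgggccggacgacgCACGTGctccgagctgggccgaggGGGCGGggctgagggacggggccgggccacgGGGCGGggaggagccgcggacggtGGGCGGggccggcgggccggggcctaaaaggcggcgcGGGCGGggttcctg
SLC3A2, chr11:62855859-62856101, plus strand: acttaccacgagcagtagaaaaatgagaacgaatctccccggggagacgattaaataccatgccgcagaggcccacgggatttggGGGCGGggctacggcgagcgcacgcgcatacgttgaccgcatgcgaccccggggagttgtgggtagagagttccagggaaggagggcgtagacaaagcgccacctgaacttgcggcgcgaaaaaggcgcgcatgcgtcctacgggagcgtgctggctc
SLC7A1, chr13:29595689-29595938, minus strand: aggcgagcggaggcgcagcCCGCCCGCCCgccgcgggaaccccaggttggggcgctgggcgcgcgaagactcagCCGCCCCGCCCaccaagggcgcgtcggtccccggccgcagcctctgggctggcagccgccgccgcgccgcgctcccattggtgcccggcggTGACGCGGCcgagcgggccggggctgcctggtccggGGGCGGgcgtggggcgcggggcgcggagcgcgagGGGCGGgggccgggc
SLC7A6, chr16:68264276-68264515, plus strand: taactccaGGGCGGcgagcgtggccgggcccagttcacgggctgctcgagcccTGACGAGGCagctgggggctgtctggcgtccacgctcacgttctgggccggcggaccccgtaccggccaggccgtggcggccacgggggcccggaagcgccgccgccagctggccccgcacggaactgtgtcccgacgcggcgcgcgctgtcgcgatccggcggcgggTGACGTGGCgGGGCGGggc

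In its RefSeq window of 250 bases, SLC7A5 held 1 match to CACGTG, from base -130 to -125, and 4 to GGGCGG. Base -1 is the last base of that window, at 87869508, which lies upstream of the gene start given above, at 87869488. SLC3A2 held 1 GGGCGG match, SLC7A1 held 6 and 1 TGACNNNGC match, and SLC7A6 held 2 of each. The GC content of these windows was 79.6%, 61.6%, 84.4% and 77.6%. Among 35116 RefSeq promoters of the same length, 6.34% held CACGTG, 10.9% TGACNNNGC, 42.6% GGGCGG and 3.14% TGATGNAA. The matches are a description of the letters, and binding was not measured here.

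Among the glutamine and small neutral amino acid carriers, SLC1A5 (ENSG00000105281, chromosome 19, 46774883 to 46788594, minus strand) was lower in EBC-1, with 131, 113 and 125 FPKM in nc and 96.5, 102 and 76.3 FPKM in shSYK libraries. The groups did not overlap, and the log2 difference was -0.43 (standard error 0.12). In HCC827 it went from 33.0, 31.6 and 37.3 FPKM to 27.4, 25.7 and 28.9 FPKM, a difference of -0.30 (standard error 0.076). In PC-9 the nc libraries ran from 60.4 to 94.2 FPKM and spanned the shSYK libraries, at 75.4 to 85.5 FPKM. SLC1A5 has the highest GC content of the group, and with the trends removed its differences were -0.16 in EBC-1 and -0.090 in HCC827, both no longer past the threshold, and 0.23 in PC-9, past the threshold upward. Its call in EBC-1 was also lost without nc replicate 1 or nc replicate 3, and that in HCC827 without shSYK replicate 2.

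SLC38A1 (ENSG00000111371, chromosome 12, 46183063 to 46270017, minus strand) was higher in EBC-1, from 16.9, 24.8 and 16.9 FPKM to 29.6, 31.5 and 32.3 FPKM. All shSYK libraries lay above all nc libraries, nc 2 being nearest to them, and the log2 difference was 0.67 (standard error 0.14) and 0.35 with the trends removed. In HCC827 it went from 15.2, 15.8 and 15.8 FPKM to 18.5, 18.4 and 17.8 FPKM, a difference of 0.21 that was 0.064 with the trends removed, no longer past the threshold. That call was also lost without nc replicate 1. In PC-9 the nc libraries, at 15.5, 25.5 and 21.0 FPKM, spanned the shSYK libraries, at 20.8, 21.3 and 20.2 FPKM, with a difference of 0.034, or -0.028 with the trends removed.

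Its neighbour SLC38A2 (ENSG00000134294, chromosome 12, 46358189 to 46372867, minus strand) was at 42.3, 54.7 and 40.3 FPKM in nc and 51.5, 51.0 and 55.7 FPKM in shSYK libraries of EBC-1. These overlapped, and the log2 difference of 0.21 was 0.34, past the threshold, without nc replicate 2, and -0.16, past the threshold downward, with the trends removed. The direction of SLC38A2 in EBC-1 therefore depended on the processing. In HCC827 it went from 21.5, 22.3 and 24.9 FPKM to 25.7, 26.5 and 28.2 FPKM. This difference of 0.22 was 0.058 with the trends removed, no longer past the threshold, and its call was lost without nc replicate 1, nc replicate 2 or any of the shSYK replicates 1, 2 and 3. In PC-9 the nc libraries ran from 25.5 to 39.0 FPKM and the shSYK libraries from 32.5 to 35.6 FPKM, with a difference of 0.081, or -0.023 with the trends removed.

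SLC1A4 (ENSG00000115902, chromosome 2, 64988477 to 65023865, plus strand) reached the filter of a mean of 1 FPKM only in EBC-1. It went there from 2.62, 2.93 and 2.55 FPKM to 1.35, 1.80 and 1.39 FPKM, with no overlap and a log2 difference of -0.56 (standard error 0.10), -0.64 with the trends removed. In PC-9 and HCC827 it was at 0.508 to 0.803 FPKM, on 26 to 60 reads per library, with overlapping groups.

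The cationic amino acid carrier SLC7A1 (ENSG00000139514, chromosome 13, 29509410 to 29595688, minus strand) showed no overlap of its groups in any line, with the shSYK values below. It went from 30.8, 32.9 and 30.7 FPKM to 24.5, 23.5 and 21.4 FPKM in EBC-1, a log2 difference of -0.43 (standard error 0.074). In HCC827 it went from 18.6, 16.9 and 18.8 FPKM to 14.3, 14.7 and 13.0 FPKM, a difference of -0.35 (standard error 0.068). In PC-9 the values were 15.8, 13.7 and 14.1 FPKM in nc and 12.8, 12.3 and 13.4 FPKM in shSYK libraries, and the difference of -0.16 (standard error 0.098) was not past the threshold. Over all genes, 3.19% were lower in all 3 lines with no overlap in any. With the trends removed, the differences were -0.37, -0.26 and -0.13.

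SLC43A1 (ENSG00000149150, chromosome 11, 57484534 to 57515786, minus strand) was tested only in EBC-1, where it went from 6.20, 7.19 and 6.19 FPKM to 2.36, 2.28 and 1.67 FPKM. The groups were far apart, on 80 to 321 reads per library, and the log2 difference was -1.29 (standard error 0.11), -1.04 with the trends removed. It was nearly silent in the other lines, with 8 to 23 reads per library in PC-9 and 0 to 15 in HCC827.

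All 10 members passed the filter in EBC-1, and 8 in PC-9 and in HCC827. In EBC-1, 6 were lower at the threshold (SLC7A5, SLC3A2, SLC1A5, SLC1A4, SLC7A1 and SLC43A1) and 2 higher (SLC38A1 and SLC7A6), beside 21.6% and 23.1% of all genes. The median difference there was -0.43 against 0.0090 over all genes tested. In HCC827, 4 were lower (SLC7A5, SLC3A2, SLC1A5 and SLC7A1) and 3 higher (SLC38A2, SLC38A1 and SLC7A6), beside 20.7% and 17.2% of all genes. The HCC827 median was -0.067, or 0.015 after rescaling to an equal sum, against -0.0053 over all genes. In PC-9, SLC7A5 was the only member past the threshold, beside 2.09% of all genes, with a median of 0.058 against 0.0088. With the trends removed, SLC38A2 took the place of SLC1A5 among the 6 lower members of EBC-1, PC-9 had SLC7A5 lower and SLC1A5 higher, and HCC827 kept 3 lower members (SLC7A5, SLC3A2 and SLC7A1) and 1 higher (SLC7A6). Of all genes, this setting called 43.5% in EBC-1 (21.8% lower and 21.7% higher), 10.1% in PC-9 (5.69% and 4.41%) and 31.2% in HCC827 (16.2% and 15.1%). Across EBC-1, PC-9 and HCC827 the share of genes called was 47.4%, 3.97% and 36.4% with TPM, 49.4%, 3.97% and 43.3% with limma-voom, 43.6%, 12.5% and 28.4% with the spread of all 18 libraries, and 34.8%, 1.42% and 34.3% with the replicate block. TPM left the calls of members as they were, and limma-voom added SLC7A11 and SLC38A2 as higher in EBC-1. The groups did not overlap for 8 EBC-1 members, 2 PC-9 members and 7 HCC827 members, beside 56.9% of all genes tested in EBC-1 (27.2% lower and 29.7% higher), 23.7% in PC-9 (12.3% and 11.4%) and 52.3% in HCC827 (27.6% and 24.7%). No more is read from these counts, since the same contrast chose the group.

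**Figure D3:**
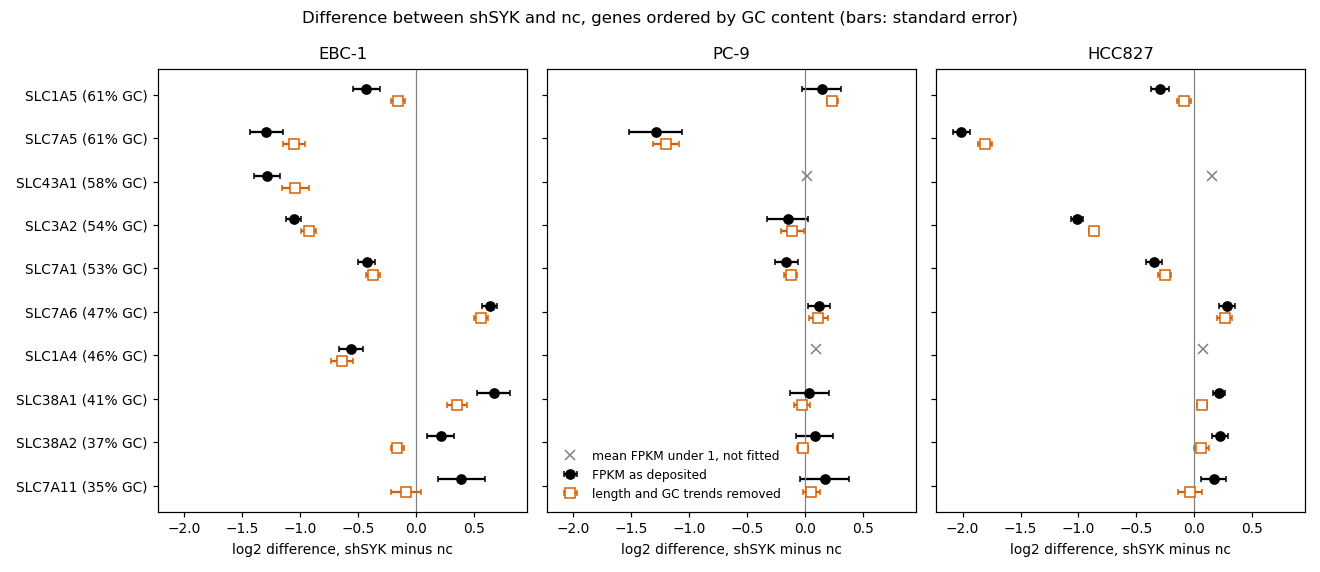
Log2 difference between shSYK and nc cells (x axis) with its standard error for each member, ordered from low to high GC content, in the 3 lines. Black circles use FPKM as deposited, open orange squares have the length and GC trends removed, and crosses mark members under the filter. The GC-poor SLC38A2 and SLC7A11 of EBC-1 change sign between the settings, and the falls of SLC7A5 and SLC3A2 remain.

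The nc libraries of PC-9 followed the GC content of the members too. All 5 members over 50% GC were highest there in nc 1 and lowest in nc 2. The 3 members under 42% GC, SLC7A11, SLC38A2 and SLC38A1, were highest in nc 2 and lowest in nc 1. In EBC-1 the same 3 GC-poor members were highest in nc 2, but so were 3 of the 5 members over 50% GC. The other 2, SLC7A5 and SLC1A5, which have the highest GC content of the group, were lowest in nc 2. A cut at 50% GC thus did not separate the members in EBC-1, while the GC-poorest and GC-richest members stood at opposite ends in nc 2. The part of this trend in the differences between shSYK and nc was not tested beyond its removal.

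Levels in nc cells set the 3 lines apart. They are described without a test, because each line has a table of its own and line and table cannot be told apart. EBC-1 had the highest mean of 8 members, all but SLC7A5 and SLC38A1. SLC7A5 was highest in HCC827, at 346 ± 8.40 FPKM (SD, n = 3), then EBC-1, at 284 ± 10.3, and then PC-9, at 53.0 ± 16.6, and the first 2 of these overlapped after rescaling to an equal sum. SLC3A2 followed another order, from 211 ± 9.19 FPKM in EBC-1 through 119 ± 3.63 in HCC827 to 37.2 ± 9.25 in PC-9. SLC7A11 ranged from 16.1 ± 5.87 FPKM in EBC-1 through 4.25 ± 1.58 in PC-9 to 1.40 ± 0.232 in HCC827. SLC1A5 went from 123 ± 9.40 FPKM in EBC-1 through 75.1 ± 17.3 in PC-9 to 33.9 ± 2.98 in HCC827. SLC38A1 was close in the 3 lines, at 20.7 ± 5.02 FPKM in PC-9, 19.5 ± 4.56 in EBC-1 and 15.6 ± 0.335 in HCC827, and the range of PC-9 overlapped both others. SLC43A1 was at 6.53 ± 0.575 FPKM in EBC-1, 18.5-fold above PC-9. The nc ranges did not overlap for 9 members between EBC-1 and PC-9, 10 between EBC-1 and HCC827 and 8 between PC-9 and HCC827, beside 70.3%, 78.6% and 67.2% of all genes.

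The effect of SYK knockdown was then compared between lines, with limma on the 18 libraries together. Each value is the log2 difference in the first line minus that in the second, and the adjusted p-values come from that fit over all 12672 genes. EBC-1 and PC-9 differed in effect for 6 of the 9 members tested, beside 19.8% of all genes, EBC-1 and HCC827 for 3 of 9, beside 21.8%, and PC-9 and HCC827 for 1 of 9, beside 7.50%. These counts include SLC43A1 and SLC1A4 in both comparisons with EBC-1, although both passed the filter of this fit only through EBC-1. They are not read as tests of a difference. Without them, SLC3A2, SLC1A5, SLC38A1 and SLC7A6 remained between EBC-1 and PC-9, and SLC7A6 alone between EBC-1 and HCC827, so the counts are not set against the shares of all genes. Comparisons of the same line share its libraries.

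SLC3A2 set PC-9 apart from both other lines. Its effect in EBC-1 minus that in PC-9 was -0.91 (95% interval -1.26 to -0.55, limma adjusted p = 0.00138), and PC-9 minus HCC827 was 0.86 (0.50 to 1.21, limma adjusted p = 0.00388). EBC-1 and HCC827 did not differ at the threshold, by -0.047 (-0.40 to 0.31). With the length and GC trends removed these 3 differences were -0.82, 0.77 and -0.050, and the same 2 were past the threshold. For SLC7A5, which was not tested, the differences in effect were 0.00 (-0.55 to 0.55) between EBC-1 and PC-9 and 0.72 (0.17 to 1.27) of either line against HCC827.

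SLC43A1 and SLC1A4 set EBC-1 apart from the lines in which they were hardly expressed. They passed the filter of this fit only through EBC-1, so each difference mostly repeats the fall in EBC-1 and is a description without a p-value. The difference in effect for SLC43A1 was -1.30 (-1.67 to -0.94) against PC-9 and -1.44 (-1.80 to -1.08) against HCC827. For SLC1A4 it was -0.66 (-0.93 to -0.38) and -0.63 (-0.91 to -0.36). Removal of the trends made them -1.12 and -1.36 for SLC43A1 and -0.72 and -0.69 for SLC1A4. On this scale a gene near 0 FPKM can show little change.

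SLC7A6 was higher by more in EBC-1 than in PC-9, by 0.51 (0.31 to 0.72, limma adjusted p = 0.00169), and than in HCC827, by 0.35 (0.15 to 0.56, limma adjusted p = 0.0164). PC-9 and HCC827 differed by -0.16 (-0.37 to 0.045), which did not pass. The differences of SLC7A6 without the trends were 0.45, 0.30 and -0.15, with the same calls. SLC1A5, at -0.57 (-0.98 to -0.16, limma adjusted p = 0.0489), and SLC38A1, at 0.63 (0.20 to 1.07, limma adjusted p = 0.0391), differed between EBC-1 and PC-9 only narrowly. Leaving out 1 library at a time took the call of SLC1A5 for 9 of 12 libraries, all but EBC-1 nc 2, EBC-1 shSYK 2 and PC-9 nc 1, and that of SLC38A1 for 10 of 12, all but EBC-1 nc 2 and PC-9 nc 1. With the length and GC trends removed their differences were smaller, at -0.37 and 0.39, and past the threshold. For SLC7A1, SLC38A2 and SLC7A11 no pair of lines passed on FPKM as deposited. Once the trends were removed, SLC7A1 passed between EBC-1 and PC-9 (-0.24, from -0.26), SLC38A2 between EBC-1 and HCC827 (-0.23, from -0.0095), SLC38A1 between EBC-1 and HCC827 (0.30, from 0.45) and SLC1A5 between PC-9 and HCC827 (0.33, from 0.44). Leaving out PC-9 nc replicate 1 brought past the threshold SLC7A1 between EBC-1 and PC-9 (-0.32) and SLC1A5 between PC-9 and HCC827 (0.61), and leaving out EBC-1 nc replicate 2 did so for SLC38A1 between EBC-1 and HCC827 (0.63). The widest of their intervals were those of SLC7A11, from -0.39 to 0.83 for EBC-1 against PC-9 or HCC827.

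**Figure D4:**
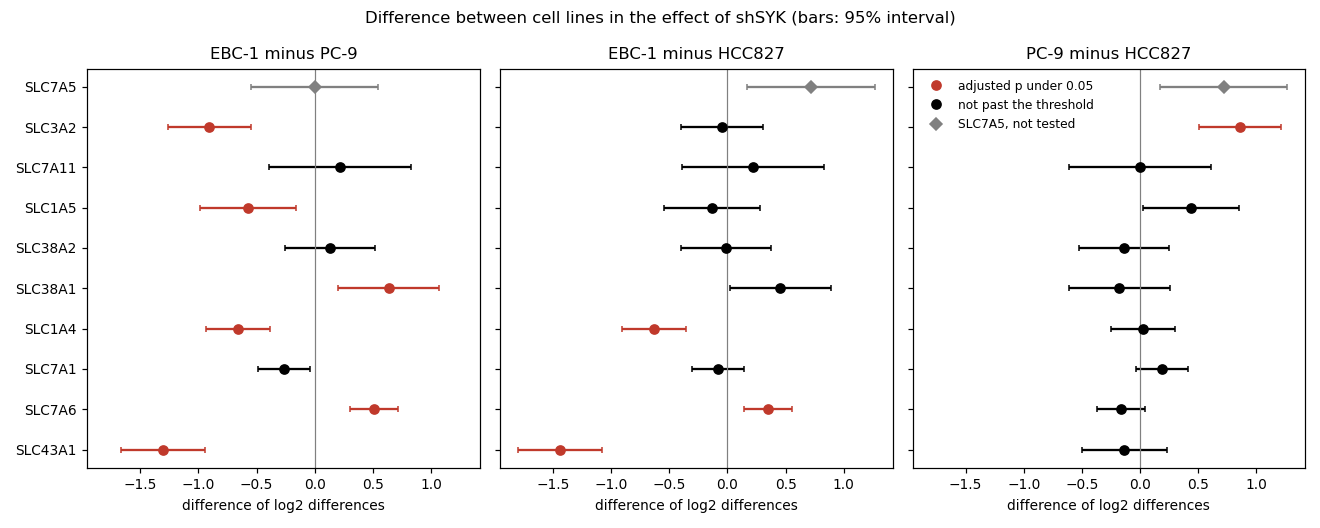
Difference between cell lines in the log2 effect of shSYK (x axis) with its 95% interval for the 10 members. Red circles mark an adjusted p under 0.05, black circles the other tests, and grey diamonds SLC7A5, which was not tested. SLC3A2 lies away from 0 in both comparisons with PC-9, and SLC43A1 and SLC1A4 in both comparisons with EBC-1. SLC43A1 and SLC1A4 passed the filter only through EBC-1, so their red circles are a description and are not read as tests.

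The genes whose profile was most like that of SLC7A5 over the 18 libraries were found by the smallest root-mean-square difference of log2 values after subtracting the mean of each line, among 4932 protein-coding genes of at least 5 FPKM in every line. They were IMPA2, an inositol monophosphatase (0.282), ATP5J2, a subunit of the mitochondrial ATP synthase (0.311), B3GAT3, a glycosyltransferase of proteoglycan synthesis (0.338), VPS25, an endosomal sorting subunit (0.342), and ELF3, an epithelial transcription factor (0.350). IMPA2 went from 17.8 to 6.96 FPKM in EBC-1, from 14.3 to 8.69 in PC-9 and from 20.6 to 6.62 in HCC827. ELF3 went from 32.1 to 13.2, from 54.1 to 34.8 and from 62.9 to 27.5 FPKM. All 5 had a GC content above the median of the genes tested, from 54.4% in VPS25 to 63.6% in B3GAT3. SLC3A2, the nearest member, stood at 0.459, a distance that 27 of the other genes came under.

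Other genes of amino acid uptake and use were followed in 5 lists. Of 42 further amino acid transporters, the number with at most 3 reads in every library was 15 for EBC-1, 18 for PC-9 and 20 for HCC827. Of the 11 tested in EBC-1, 1 fell and 1 rose, beside 21.6% and 23.1% of all genes. Of the 12 tested in HCC827, 6 fell and 0 rose at the limma threshold, beside 20.7% and 17.2% of all genes. At an unadjusted p under 0.05, 7 were lower and 0 higher in HCC827, but the share of all genes at that looser cut is not given here. Limma-voom on recovered reads called 7, of which 2 were higher, beside 43.3% of all genes. Of the genes called there with at least 5 FPKM, the 4 with the largest falls are named. They were the taurine transporter SLC6A6 (12.2 to 8.22 FPKM, log2 difference -0.52), the lysosomal SLC38A7 (8.59 to 6.06, -0.44), SLC38A10 (19.2 to 12.7, -0.56) and SLC43A2 (7.08 to 4.74, -0.48), a relative of SLC43A1. With the length and GC trends removed 4 genes of the list were lower and 1 higher, beside 16.2% and 15.1% of all genes. Of the 4 named, SLC43A2 was no longer past the threshold (-0.34), and SLC38A7 was at -0.29. SLC6A6 also fell in EBC-1, from 11.7 to 9.48 FPKM (-0.27), where the 2 calls fell to 0 when any 1 library other than nc replicate 2 was left out. Of the 13 tested in PC-9, 0 passed the limma threshold, beside 2.09% of all genes, and 1 passed with limma-voom, beside 3.97%. An unadjusted p under 0.05 was found for 5, and the share of all genes at that cut is not given here.

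Genes of the ATF4 response, which cells switch on when amino acids run short, moved most in EBC-1. Of 26 tested, 19 fell and 2 rose, with a median of -0.72, beside 21.6% and 23.1% of all genes. The list was drawn up with the falls in EBC-1 known, so its direction there is no independent evidence. DDIT3, which encodes the stress factor CHOP, went from 171 ± 22.9 to 10.6 ± 1.26 FPKM (SD, n = 3), a log2 difference of -3.88 (standard error 0.12). TRIB3 went from 145 to 45.8 FPKM (-1.64), DDIT4, an inhibitor of mTORC1, from 419.8 to 135 (-1.62) and PPP1R15A, a phosphatase subunit that restores translation, from 118 to 46.0 (-1.34). In HCC827, 6 of 27 fell and 6 rose, beside 20.7% and 17.2% of all genes. The split was 3 lower and 8 higher with the trends removed, beside 16.2% and 15.1% of all genes. It was 6 and 9 with limma-voom, where 43.3% of all genes were called and 58.2% of those calls were higher. The largest falls were in CEBPB, a transcription factor (49.6 to 29.0 FPKM, -0.70), CHAC1, which degrades glutathione (14.5 to 8.65, -0.66), PHGDH, the first enzyme of serine synthesis (14.6 to 9.70, -0.54), and GPT2, an alanine aminotransferase (34.3 to 25.1, -0.43). CEBPB (-0.50) and CHAC1 (-0.45) were no longer past the threshold once the trends were removed, and GPT2 was at -0.29. In PC-9, 0 of 27 passed the limma threshold, beside 2.09% of all genes. With limma-voom 5 passed, beside 3.97% of all genes. There 10 had an unadjusted p under 0.05, 2 of them lower and 8 higher. The share of all genes at that looser cut is not given here, so no excess is read from them. The median there was 0.18, against 0.0088 over all genes.

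Of the genes by which mTORC1 senses amino acids, 6 fell and 5 rose among 26 in EBC-1, and 5 fell and 5 rose among 26 in HCC827, beside 21.6% lower and 23.1% higher of all genes for EBC-1, and 20.7% and 17.2% for HCC827. The EBC-1 split was 4 lower and 8 higher with TPM, and 6 and 2 with the trends removed. That of HCC827 was 3 and 5 with TPM, where 36.4% of all genes were called and 56.5% of those calls were higher. It was 3 and 2 with the trends removed, beside 16.2% and 15.1% of all genes. SESN2, a leucine sensor and ATF4 target, went from 48.8 to 21.1 FPKM in EBC-1 (-1.18), and LAMTOR1, which anchors the complex to lysosomes, from 22.1 to 32.0 (0.51). MLST8, a subunit of the complex, fell in EBC-1 (30.4 to 19.5 FPKM, -0.62) and in HCC827 (19.0 to 11.4, -0.69), as did LAMTOR2 (22.7 to 15.7, -0.50, and 43.2 to 33.6, -0.35). RHEB, the activator of mTORC1, rose in HCC827 (26.4 to 32.8 FPKM, 0.31) and its inhibitor TSC2 fell (9.14 to 6.89, -0.36). Without the trends MLST8 (-0.37) and LAMTOR2 (-0.29) in EBC-1 and TSC2 (-0.21) in HCC827 were smaller and still past the threshold. In PC-9, 0 of 26 passed the limma threshold, beside 2.09% of all genes, and 0 passed with limma-voom, beside 3.97%. An unadjusted p under 0.05 was found for 2, and the share of all genes at that cut is not given here.

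Of 11 reported regulators or partners of the transporters, 4 fell and 3 rose in EBC-1, 1 rose in PC-9, and 3 fell and 3 rose in HCC827, beside 44.7%, 2.09% and 38.0% of all genes called in either direction. With the trends removed 3 fell and 1 rose in EBC-1, beside 21.8% and 21.7% of all genes. CD44, a surface glycoprotein that binds and stabilizes SLC7A11, rose in each line, from 8.06 to 22.6 FPKM in EBC-1 (1.37), from 82.4 to 124 in PC-9 (0.59) and from 21.0 to 26.3 in HCC827 (0.31). Its call in PC-9 was lost with no filter, with the replicate block, and without nc replicate 3 or any 1 of the shSYK replicates 1, 2 and 3. MYC went from 188 to 122 FPKM in EBC-1 (-0.62) and NFE2L2, which encodes NRF2, from 5.12 to 6.89 (0.38), which was 0.11 and no longer past the threshold with the trends removed. RNF5, a ubiquitin ligase for glutamine carriers, fell in EBC-1 (65.1 to 45.2 FPKM, -0.51) and HCC827 (53.0 to 37.7, -0.48), and with the trends removed it was at -0.31 in EBC-1. KEAP1, the inhibitor of NRF2, fell in HCC827 (41.5 to 34.9 FPKM, -0.25), which was -0.046 and no longer past the threshold with the trends removed.

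Of 15 enzymes of glutathione, glutamine and branched-chain amino acids tested in EBC-1, 7 fell and 1 rose, beside 21.6% and 23.1% of all genes. The split was 4 lower and 3 higher with TPM, 6 and 3 with limma-voom, 4 and 1 with the replicate block, and 6 and 2 with the trends removed. GPX4, the glutathione-dependent lipid peroxidase, went from 253 to 141 FPKM (-0.84), GOT1 from 32.5 to 20.7 (-0.63) and BCAT2, a branched-chain aminotransferase, from 9.94 to 6.24 (-0.59). Without the trends GPX4 was at -0.52 and BCAT2 at -0.36, both still past the threshold. In HCC827, 5 fell and 4 rose of 14, beside 20.7% and 17.2% of all genes, with GGT1, which breaks down extracellular glutathione, at 9.08 and 3.67 FPKM (-1.11) and TXNRD1, a thioredoxin reductase, at 122 and 81.4 (-0.58). GPT2, named above, is also on this list. In PC-9, 1 of 13 fell, beside 1.41% of all genes. It was the glutamine synthetase GLUL, from 30.7 to 17.0 FPKM (-0.81).

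**Figure D5:**
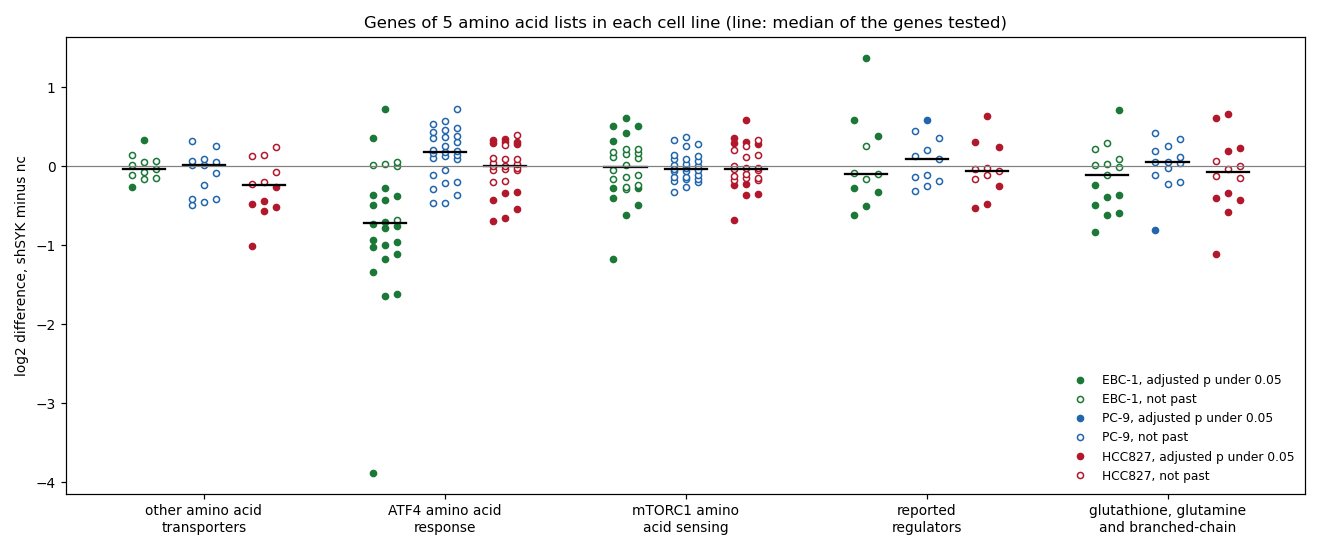
Log2 difference between shSYK and nc cells (y axis) of each tested gene of the 5 lists, by cell line. Filled points passed an adjusted p of 0.05, open points did not, and black lines are medians. The ATF4 genes of EBC-1 lie lowest, with DDIT3 at -3.88, and nearly all points of PC-9 are open.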

How the data were processed

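RNA was isolated in TRIzol, libraries were run on an Illumina HiSeq, reads were mapped to hg38, and the submitters' processing notes name CASAVA and HISAT2. The counting program and the annotation are not given in the sources used here. The authors deposited FPKM for 58302 Ensembl genes, with 1 table per cell line and no pooling of replicates. FPKM times gene length gave whole reads in 100% of values (within 0.05), so reads per gene were recovered, and the depth of a library is their sum. Floors of 3 reads cover counting error only. Replicate libraries differed by more than sampling noise.

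In R 4.3.3, limma 3.58.1 with a variance trend was fitted on log2(FPKM + 1) to genes with a mean of at least 1 FPKM, with Benjamini-Hochberg adjustment over all genes tested and a threshold of 0.05, two-sided. Each line was fitted on its 6 libraries. Differences between lines and their 95% intervals came from all 18, and intervals use the moderated variance. This scale understates the change of low genes. Scripts were tested on simulated data. GC content came from GENCODE v44 transcripts (57532 genes matched), and promoters from RefSeq by symbol. The settings varied were the pseudocount (0.1), the filter (none or 5 FPKM), TPM rescaling, limma-voom on recovered reads, a fit without the variance trend, a replicate block, the spread of all 18 libraries and each library left out in turn. Removal of length and GC trends (lowess, span 0.3) was chosen after seeing the data.

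The members, lists and rules were chosen with earlier results of these data known. Named are SYK, the 10 members, the 5 genes most like SLC7A5 and, per list and line, up to 4 called genes of at least 5 FPKM with the largest differences. SLC7A6OS and the SLC7A5 pseudogenes were added because they share reads or position with members. Some genes that these rules name are not reported here.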

Additional observations from a re-analysis of the deposited data

Results flagged for a closer look

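These results stand here because the effect of SYK knockdown on a transporter differed between a pair of cell lines in the limma fit of all 18 libraries. Between EBC-1 and PC-9, the difference in log2 effect was -0.91 for SLC3A2, -0.57 for SLC1A5, 0.63 for SLC38A1, -0.66 for SLC1A4, 0.51 for SLC7A6 and -1.30 for SLC43A1. Between EBC-1 and HCC827 it was -0.63 for SLC1A4, 0.35 for SLC7A6 and -1.44 for SLC43A1. Between PC-9 and HCC827 it was 0.86 for SLC3A2. SLC43A1 and SLC1A4 passed the filter of this fit only through EBC-1, so their differences mostly repeat the fall within EBC-1. Groups of 3 libraries were too small to look for a library far from the others.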

How the results depend on the processing

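Counts at the threshold depended on the processing most in PC-9, where 253 genes changed as reported, 47 with no filter, 480 with TPM rescaling and with limma-voom, 1221 with the length and GC trends removed and 1511 with the spread of all 18 libraries. EBC-1 had 3579 changed genes with a filter of 5 FPKM. With no filter, 0 transporters were called in PC-9, 0 other transporters, 7 mTORC1 genes, 4 regulators and 5 enzymes in EBC-1, 0 regulators and 0 enzymes in PC-9, and 6 mTORC1 genes in HCC827. With a filter of 5 FPKM, 1 other transporter and 7 mTORC1 genes were called in EBC-1, and 1 transporter differed between EBC-1 and HCC827. With TPM rescaling, 1 other transporter was called in EBC-1, and 1 other transporter and 3 ATF4 genes in PC-9, and with limma-voom 1, 1 and 5. With the trends removed, 4 regulators were called in EBC-1, 2 members, 3 other transporters, 8 ATF4 genes, 2 mTORC1 genes, 2 regulators and 3 enzymes in PC-9, and 4 members and 5 mTORC1 genes in HCC827, and 5 members differed between EBC-1 and HCC827 and 2 between PC-9 and HCC827. With the spread of all 18 libraries, 5 other transporters, 8 ATF4 genes, 2 mTORC1 genes and 2 regulators were called in PC-9, and 4 members in HCC827. The cause was not tested.

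Replicate numbers did not pair the libraries. Correlations of same-numbered deviations were 0.034, -0.165 and -0.219 in EBC-1, -0.053, 0.325 and -0.121 in PC-9, and 0.0017, 0.063 and 0.024 in HCC827, and in no line did every library correlate best with its own number. With the replicate block, calls of members numbered 8 for EBC-1, 1 for PC-9 and 7 for HCC827, with 0 other transporters and 5 enzymes in EBC-1 and 0 regulators in PC-9.

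Leaving out 1 library gave 7 to 621 changed genes in PC-9 (lowest without shSYK replicate 1, highest without nc replicate 1) and 0 to 1 members there, and 4 to 6 members in HCC827. The lists ran from 0 to 2 other transporters, 7 to 15 mTORC1 genes, 4 to 8 regulators and 5 to 11 enzymes in EBC-1, the high ends without nc replicate 2. They ran from 0 to 5 ATF4 genes, 0 to 1 mTORC1 genes, 0 to 2 regulators and 0 to 1 enzymes in PC-9, and 5 to 10 mTORC1 genes in HCC827. Members that differed between PC-9 and HCC827 were 1 to 2. No difference of a called member or between lines at the threshold changed sign under these alternatives, SLC38A2 of EBC-1 not being called as reported.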

Other observations

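The pseudogene SLC7A5P1 did not follow SLC7A5 in PC-9. Its nc libraries ran from 6.57 to 9.46 FPKM and its shSYK libraries from 10.2 to 10.8 FPKM, all above them, whereas SLC7A5 was lower in every shSYK library of that line. In EBC-1 it ran from 8.05 to 10.7 FPKM in nc and from 4.52 to 5.57 FPKM in shSYK libraries, and in HCC827 the groups overlapped, at 4.12 to 5.53 and 2.28 to 5.03 FPKM. These values were looked at after those of SLC7A5 were known and were not tested.

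The ratio of the cystine transporter SLC7A11 to its heavy chain SLC3A2 was 0.0630, 0.103 and 0.0600 in nc and 0.197, 0.199 and 0.216 in shSYK libraries of EBC-1. In HCC827 it was 0.0101, 0.0116 and 0.0136 in nc and 0.0272, 0.0279 and 0.0313 in shSYK libraries. In PC-9 the nc libraries, at 0.0564, 0.199 and 0.122, spanned the shSYK libraries, at 0.152, 0.155 and 0.127. SLC7A11 is among the GC-poorest and SLC3A2 among the GC-richer members, and the part of the GC trend in these ratios was not tested.

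Among the markers of other cell types, the endothelial gene PECAM1 was at 13.4 FPKM in nc and 4.98 FPKM in shSYK cells of PC-9, a log2 difference of -1.27 past the threshold, and CDH5 was at 2.42 and 2.38 FPKM there. In EBC-1 and HCC827 PECAM1 stayed at or below 0.181 FPKM on average. The epithelial marker KRT7 fell in EBC-1, from 763 to 302 FPKM.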
